A study of Mus musculus with 11 samples.

Results

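The genes described here encode the respiratory chain, the series of protein complexes in the inner mitochondrial membrane. They were chosen by name: protein-coding genes of the Nduf, Sdha to Sdhd, Uqcr, Cox4 to Cox8 and Atp5 families, together with the protein genes of mitochondrial DNA (mt-Nd, mt-Co, mt-Cytb, mt-Atp). The naming rule used no measured value other than a minimum level, met where 5 or more libraries reached -1 log2 CPM. The set itself was chosen with earlier results of these data known, so its share of calls is a description. CPM is the usual read count of a gene relative to the total of its library, after the authors' scaling. Of 31936 genes in the deposited table, 101 carried such a name, and 93 of these passed the minimum, among 12969 genes tested in all. The 93 were 77 nuclear-encoded subunits, 9 other nuclear-encoded genes that share the Nduf or Atp5 prefix, and 7 genes of mitochondrial DNA. The 9 are assembly factors and related factors that were not counted as subunits, and are called assembly factors below.

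The respiratory chain passes electrons from NADH (complex I) and succinate (complex II) through complex III to oxygen at complex IV, and the proton gradient built on the way drives ATP synthesis by complex V. Most subunits are encoded in the nucleus and imported, while a few core subunits of complexes I, III, IV and V are encoded and translated inside the mitochondrion. In macrophages the balance between respiration and glycolysis is known to shift with activation state, and complexes I and II are known sources of reactive oxygen species.

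RNA sequencing was done on peritoneal macrophages of female mice, elicited with thioglycollate, an irritant that draws inflammatory macrophages into the abdominal cavity. The 2 groups were 5 libraries given a negative control (replicates 1, 2, 3, 4 and 6) and 6 libraries given a microRNA-150 (miR-150) mimic (replicates 1 to 6). A mimic is a synthetic RNA that acts as the microRNA. The labels give no mouse strain, age, dose or time after delivery, and do not say if the replicates are different animals or cultures. The p-values therefore rest on the spread between these samples alone, which could be technical.

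Libraries held 18538509 to 25473814 reads assigned to genes. Macrophage markers summed to 18357 to 20678 CPM in controls and 16655 to 19947 CPM in mimic libraries, and of 10 tested 2 were called higher (Fcgr1 by 1.32 log2 units, Adgre1 by 0.18) and 2 lower (Lyz2 at -0.23, Cd14 at -0.26). Of 3 tested markers of resident macrophages 1 was called higher (Timd4, by 0.59), and the list summed to 5.58 to 6.04 CPM in controls and 4.48 to 5.84 CPM with the mimic. The others went the other way without a call. Gata6 was at -0.37 and Prg4 at -0.065, and Selp, not tested, had mean log2 CPM of -1.12 in controls and -1.42 with the mimic. Neutrophil markers summed to 92.0 to 98.9 CPM in controls and 78.7 to 103 CPM with the mimic, with 1 of 3 tested called lower (S100a8 at -0.56, limma adjusted p = 0.00789), Mmp8 not called at 0.04, and the other 3, Ly6g, S100a9 and Retnlg, at 3 reads or fewer per group. Eosinophil markers summed to 33.4 to 36.4 CPM and 27.4 to 28.9 CPM, with the 1 tested of the 4 (Siglecf, -0.31) called lower and Prg2 and Epx at 10 reads or fewer per group. The remaining marker, Ccr3, was below the minimum level and went the other way. It had 23 reads in controls and 58 with the mimic, with mean log2 CPM of -2.19 and -1.23. Mesothelial and fibroblast markers summed to 28.1 to 41.1 CPM and 21.7 to 38.2 CPM, with 0 of 6 called, B cell markers to 2.96 to 4.75 and 2.16 to 3.71 CPM, with 1 of 2 tested called lower (Ighm, -0.75), and T cell and mast cell markers to at most 1.2 CPM in any library. The share of reads in replication-dependent histone genes, a group of short transcripts, was 0.0388 to 0.0426% in controls and 0.0388, 0.028, 0.0235, 0.0209, 0.0288 and 0.0208% in mimic replicates 1 to 6. In such bulk samples, fewer cells of a type and less RNA per cell cannot be told apart.

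With the mimic, 42 of the 77 nuclear-encoded subunits fell and 1 rose (limma, Benjamini-Hochberg adjusted p below 0.05 over all genes tested), against a background of 14.6% of all tested genes called lower and 15.4% called higher. The 42 made up 54.5% of the subunits. Their falls ran from 0.15 log2 units for Ndufv1 to 0.68 for Ndufb11, which left Ndufb11 at 62.4% of its control level. The median log2 fold change was -0.26 over the 77 subunits and 0.0007 over all genes tested, and 69 of the 77 estimates were negative. None of the 7 genes of mitochondrial DNA and none of the 9 assembly factors was called in either direction (limma), with medians of 0.03 and 0.02. The authors' deposited table called 40 of the 77 subunits lower and 1 higher at the same threshold, against 10.5% and 11.1% of the genes tested here, and 39 were called lower in both. With no filter on low values, 19 of the 77 were called lower, against 1465 of all 31936 genes.

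**Figure D1:**
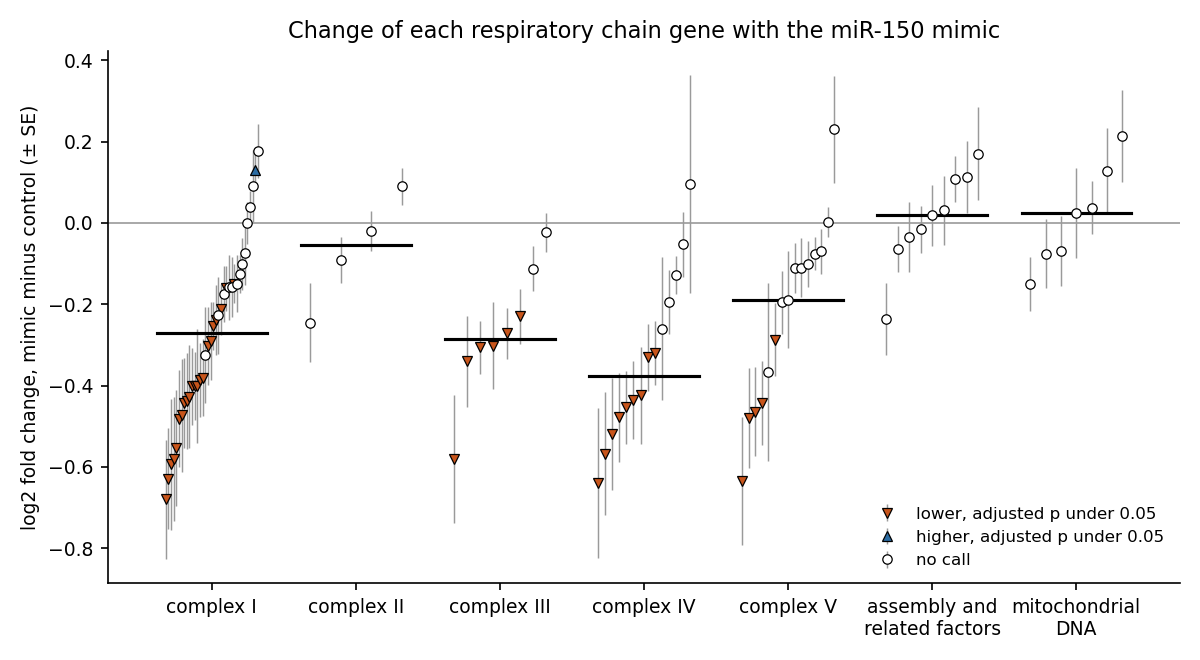
Log2 fold change of every tested gene, mimic minus control, grouped by complex and genome, with bars of 1 SE (5 control and 6 mimic libraries) and a horizontal line at each median. Filled points passed limma's adjusted threshold: they lie on the negative side in complexes I, III, IV and V except for Ndufa13, and none is seen in complex II, the assembly factors or mitochondrial DNA.

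The fall was not shared evenly by the mimic libraries. Averaged over the 77 nuclear subunits as the deviation from the control mean, the 5 controls stood at 0.02, 0.05, 0.01, -0.05 and -0.03 log2 units, and mimic replicates 1 to 6 at 0.04, -0.28, -0.33, -0.46, -0.17 and -0.38. Mimic replicate 1 therefore lay within the range of the controls, at 102.6% of their mean, and the other 5 lay below every control, at 72.6 to 89.1%. Replicate 4 was the lowest of all 11 libraries for 53 of the 77 subunits. Mimic replicate 1 was below every control for 7 subunits and each other mimic library for 47 to 64. Of the 42 subunits called lower, 36 were below every control in 5 of 6 mimic libraries, 5 in all 6 and 1 in 4 of 6.

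**Figure D2:**
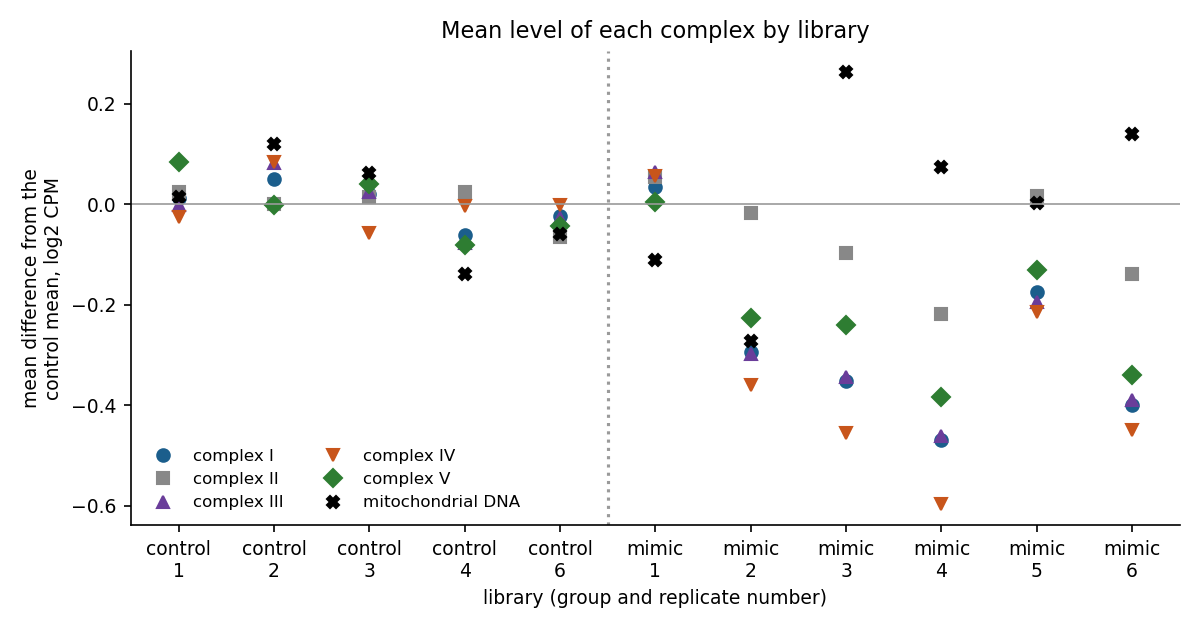
Mean deviation from the control mean (log2) of each complex in each of the 11 libraries, 1 point per library. In complexes I, III, IV and V mimic replicate 1 sits with the controls and replicate 4 is lowest, whereas the 7 genes of mitochondrial DNA spread from -0.27 in replicate 2 to 0.26 in replicate 3.

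Groups that do not overlap were found for 5 of the 77 subunits, all lower with the mimic: Ndufb6 and Ndufb7 of complex I, Cox7a2l and Cox8a of complex IV and Atp5g3 of complex V. Over all genes tested, 6.04% had every mimic library below every control and 8.89% every mimic library above. Every mimic library below every control was thus about as frequent among the subunits as over all genes. Promoter windows from RefSeq (GRCm38.p6, 250 bases before to 50 bases after the annotated start) were matched for 64 of the 77 subunits and are printed for 4 of these 5 and for Ndufa13, the single subunit that rose. They are shown as the start regions of members chosen by group separation or by the direction of their call, not by the size of their change. Capitals mark exact matches, on either strand, to CCGGAAG, a core bound by ETS factors including GABP, or to GGGCGG, a core bound by SP1. The windows are Ndufb6 at chr4:40279372-40279671, minus strand, Ndufb7 at chr8:83566508-83566807, plus strand, Cox7a2l at chr17:83514284-83514583, minus strand, Cox8a at chr19:7217567-7217866, minus strand, and Ndufa13 at chr8:69901971-69902270, minus strand.
Ndufb6: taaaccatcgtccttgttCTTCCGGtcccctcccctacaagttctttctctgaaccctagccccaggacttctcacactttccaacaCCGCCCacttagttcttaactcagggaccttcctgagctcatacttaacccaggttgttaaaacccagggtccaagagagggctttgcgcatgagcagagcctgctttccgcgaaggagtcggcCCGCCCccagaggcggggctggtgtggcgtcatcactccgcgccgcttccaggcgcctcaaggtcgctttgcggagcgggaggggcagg
Ndufb7: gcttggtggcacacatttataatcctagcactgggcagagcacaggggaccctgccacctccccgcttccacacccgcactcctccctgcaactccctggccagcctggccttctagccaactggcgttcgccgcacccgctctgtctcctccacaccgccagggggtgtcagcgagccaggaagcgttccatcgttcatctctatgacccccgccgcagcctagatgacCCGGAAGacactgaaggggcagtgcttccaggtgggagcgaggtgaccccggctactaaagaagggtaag
Cox7a2l: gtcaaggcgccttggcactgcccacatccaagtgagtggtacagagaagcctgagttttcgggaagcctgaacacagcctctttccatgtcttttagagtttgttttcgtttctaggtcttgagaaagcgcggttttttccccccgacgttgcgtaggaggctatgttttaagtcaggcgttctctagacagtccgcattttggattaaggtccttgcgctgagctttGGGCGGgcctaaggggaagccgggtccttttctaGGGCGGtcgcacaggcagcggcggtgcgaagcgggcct
Cox8a: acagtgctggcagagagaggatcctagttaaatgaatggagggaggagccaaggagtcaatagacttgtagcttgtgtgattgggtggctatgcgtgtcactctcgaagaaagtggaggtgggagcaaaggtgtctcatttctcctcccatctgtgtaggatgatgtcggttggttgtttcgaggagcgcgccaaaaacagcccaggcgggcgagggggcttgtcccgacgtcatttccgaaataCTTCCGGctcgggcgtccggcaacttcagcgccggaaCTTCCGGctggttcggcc
Ndufa13: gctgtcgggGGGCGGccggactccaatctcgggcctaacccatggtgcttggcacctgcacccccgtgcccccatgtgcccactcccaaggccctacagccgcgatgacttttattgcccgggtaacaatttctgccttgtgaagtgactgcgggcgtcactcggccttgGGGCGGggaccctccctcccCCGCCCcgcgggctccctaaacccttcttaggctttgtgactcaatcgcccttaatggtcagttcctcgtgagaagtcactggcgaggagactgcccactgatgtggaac
The Ndufb7, Cox7a2l and Ndufa13 starts lie inside the longer gene spans of GENCODE M21. The Ndufb6, Ndufb7 and Cox8a windows held the ETS core, and the Ndufb6, Cox7a2l and Ndufa13 windows the SP1 core. The Atp5g3 window held none of the motifs searched.

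Over the 69 windows of the 64 matched subunits, the ETS core was present in 23.19%, compared with 8.86% of all 32851 windows of that length. An exact 10-base core bound by NRF1, a regulator of respiratory genes, was in 7.25% against 0.97% of all windows, the YY1 core AAGATGG in 14.49% against 6.34%, and the SP1 core in 37.68% against 35.66%. The 4 motifs were searched separately on both strands, so matches to different motifs may overlap. Among subunits called lower, 7 of 38 windows held the ETS core (18.42%), 1 the NRF1 core (2.63%), 5 the YY1 core (13.16%) and 12 the SP1 core (31.58%). Among the others, with 31 windows, these were 9 (29.03%), 4 (12.9%), 5 (16.13%) and 14 (45.16%). The counts are small and their difference was not tested. A match describes letters in a window and says nothing of binding.

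Complex I, which oxidises NADH, had 36 tested nuclear subunits, of which 22 fell and 1 rose, and the median log2 change was -0.27. Of the 7 core subunits, which carry the redox centres, 4 fell, and of the 29 accessory subunits 18 fell and 1 rose (medians -0.16 and -0.32). The core subunits also had longer transcripts, with medians of 1623 and 763 nucleotides. After the length correction described below, the medians were -0.09 and -0.11, with 28.6% and 34.5% called lower. Ndufb6, an accessory subunit of the membrane arm (ENSMUSG00000071014, chromosome 4, 40270591 to 40279421), had log2 CPM of 4.48, 4.65, 4.54, 4.57 and 4.58 in control replicates 1, 2, 3, 4 and 6, and from 3.59 through a median of 3.85 to 4.47 with the mimic. The groups were separated, but mimic replicate 1, at 4.47, was only just below the lowest control. The log2 fold change was -0.63 ± 0.124 (SE; limma adjusted p = 0.00229; two-sided exact permutation p = 0.00433, where 0.00216 is the smallest this design allows). Its transcript shares 34.1% of its 50-base stretches, on either strand, with 1 other gene, the antisense neighbour Smim27, so its reads are uncertain if the counting ignored strand.

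Ndufb11, another membrane-arm subunit (chromosome X, 20615326 to 20617619), had control values of 5.48, 5.58, 5.44, 5.37 and 5.48 log2 CPM and mimic values from 4.47 through a median of 4.69 to 5.48. Mimic replicate 1 supplied the 5.48 and overlapped the controls, while the other 5 mimic libraries lay at 4.86 or lower. Its change, -0.68 ± 0.146 (SE; limma adjusted p = 0.00553), was the largest fall among the 77 subunits. Of its 50-base stretches, 17.46% occur in other genes, among them Rbm10, which overlaps it on the opposite strand. Ndufa1, a small accessory subunit needed for assembly of the complex, fell by 0.40 ± 0.0846 log2 units, and Ndufb7, which faces the intermembrane space, by 0.25 ± 0.0592 (limma adjusted p = 0.0031 and 0.00559). Ndufb7 had control values from 6.48 to 6.64 log2 CPM and mimic values from 6.08 to 6.47.

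The core subunit Ndufs7, which holds the iron-sulfur cluster nearest the quinone, had control values of 5.76, 5.85, 5.78, 5.76 and 5.80 log2 CPM and mimic values from 5.03 through 5.30 to 5.88. Mimic replicate 1 was above every control and the other 5 below them, and the log2 fold change was -0.43 ± 0.127 (limma adjusted p = 0.0238). Ndufv2, an iron-sulfur subunit of the NADH module, fell by 0.24 and Ndufv1, which binds NADH and FMN, by 0.15 log2 units (limma adjusted p = 0.0489 and 0.03). These 3 calls depended on single libraries. Ndufs7 missed the threshold without mimic replicate 3, 4 or 6, with changes of -0.39, -0.36 and -0.37. Ndufv1 missed it without any 1 of control replicates 2, 4 and 6 and mimic replicates 3, 4 and 6 (-0.12 to -0.15), and Ndufv2 without any 1 of the libraries other than mimic replicates 1 and 5 (-0.19 to -0.26).

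Ndufs1, the largest core subunit, was not called. It had log2 CPM of 6.24, 6.21, 6.22, 6.22 and 6.17 in controls and from 6.18 through 6.41 to 6.60 with the mimic, a log2 fold change of 0.18 ± 0.067 (limma adjusted p = 0.056). Mimic replicates 3, 4, 5 and 6 were above every control and replicates 1 and 2 were not. Without mimic replicate 1 it passed the threshold at 0.21, and without mimic replicate 2 at 0.22. Ndufa13, an accessory subunit also known as GRIM-19, was the subunit that rose. It had control values of 6.80, 6.69, 6.74, 6.63 and 6.70 log2 CPM and mimic values from 6.78 through 6.85 to 6.89, so control replicate 1 overlapped the mimic group. The log2 fold change was 0.13 ± 0.041 (limma adjusted p = 0.0258; two-sided exact permutation p = 0.00866), or 109.5% of control. The call was lost without control replicate 2 (0.12), 4 (0.11) or 6 (0.13) or mimic replicate 3 (0.12), and also with library totals left unscaled or without mitochondrial reads, with no filter on low values, and without mimic replicates 3, 4 and 6 together (0.10). For Ndufa13, 28.54% of the transcript's 50-base stretches occur in other genes, among them the overlapping gene Tssk6.

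**Figure D3:**
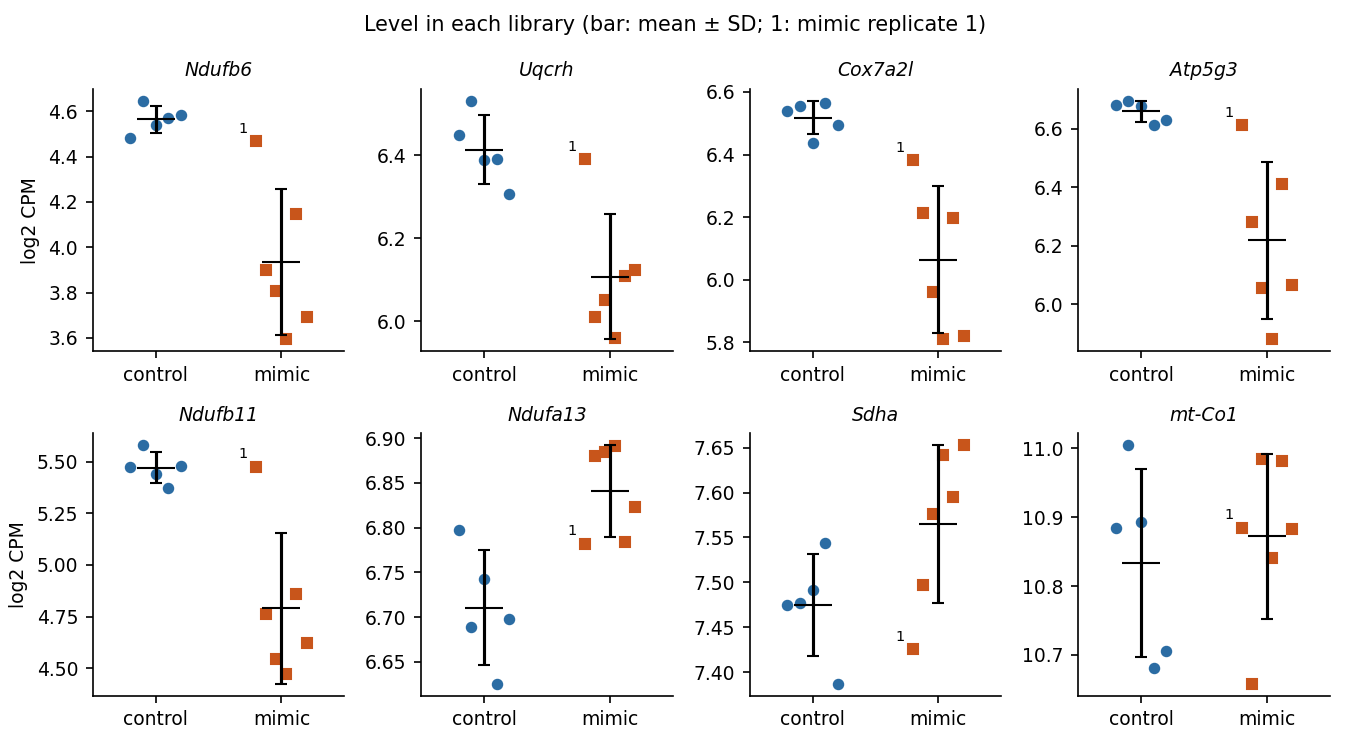
Log2 CPM of selected members in each of the 11 libraries, 1 point per library and a separate axis for each gene, with bars for the group mean ± SD and a 1 beside mimic replicate 1. For Ndufb6, Cox7a2l and Atp5g3 mimic replicate 1 lies just beneath the controls and the other mimic libraries lower still, while the groups overlap for Ndufb11, Uqcrh, Ndufa13, Sdha and mt-Co1.

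Complex II, succinate dehydrogenase, is built from 4 nuclear subunits, and none of the 4 was called. The catalytic flavoprotein Sdha had control values of 7.47, 7.48, 7.49, 7.54 and 7.39 log2 CPM and mimic values from 7.43 through 7.59 to 7.65, a log2 fold change of 0.09 ± 0.046 (limma adjusted p = 0.146). The iron-sulfur subunit Sdhb had control values of 7.20, 7.14, 7.16, 7.14 and 7.00 and mimic values from 6.55 through 6.88 to 7.25, a change of -0.25 ± 0.0979 (limma adjusted p = 0.0727). The groups overlapped for both genes, and Sdhb in mimic replicate 1 was above every control. Without mimic replicate 1 both passed the threshold, Sdha at 0.12 and Sdhb at -0.32. The membrane anchors Sdhc and Sdhd had log2 fold changes of -0.02 and -0.09 (limma adjusted p = 0.779 and 0.231).

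Complex III, which hands electrons from ubiquinol to cytochrome c, had 6 of its 8 nuclear subunits with a Uqcr name called lower and none higher, with a median of -0.29. Uqcrh, the hinge protein, had control values of 6.45, 6.53, 6.39, 6.39 and 6.31 log2 CPM and mimic values from 5.96 through 6.08 to 6.39. Again mimic replicate 1 was the library inside the control range and the other 5 lay below it. The log2 fold change was -0.31 ± 0.0653 (limma adjusted p = 0.00309). The small subunits Uqcr11 and Uqcr10 fell by 0.27 and 0.58, and the Rieske iron-sulfur protein Uqcrfs1 by 0.23 log2 units (limma adjusted p = 0.00493, 0.018 and 0.019). Uqcr10 missed the threshold without mimic replicate 4, at -0.51. The 2 large core proteins, Uqcrc1 and Uqcrc2, were the Uqcr members not called, at -0.11 and -0.02 (limma adjusted p = 0.136 and 0.737), and Uqcrc1 passed without mimic replicate 1, at -0.14. Cyc1, the cytochrome c1 of complex III, carries no such name and was not called, at -0.18 (limma adjusted p = 0.0593).

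Complex IV, cytochrome c oxidase, had 9 of 14 tested nuclear subunits called lower and none higher, with the most negative median of the 5 complexes, -0.38. Its subunits also had the shortest median transcript length of the 5, 652 nucleotides. Medians corrected for length are given below. Cox7a2l, which is known for joining complexes III and IV into supercomplexes (ENSMUSG00000024248, chromosome 17, 83501918 to 83517330), had control values of 6.54, 6.56, 6.44, 6.56 and 6.49 log2 CPM. Its mimic values ran from 5.81 through 6.08 to 6.38. All 6 mimic libraries lay below the 5 controls, and the log2 fold change was -0.45 ± 0.0899 (limma adjusted p = 0.00224; two-sided exact permutation p = 0.00433). Of the 50-base stretches of Cox7a2l, 19.77% occur in another gene. Cox8a, the widespread form of a small membrane subunit, had control values of 7.39, 7.49, 7.37, 7.43 and 7.46 and mimic values from 6.73 through 6.97 to 7.37. Its groups did not overlap, although mimic replicate 1 was level with the lowest control to 2 decimals, and it fell by 0.44 ± 0.0961 log2 units (limma adjusted p = 0.005).

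Cox5a, Cox6b1 and Cox4i1, the last a regulatory subunit that binds ATP, fell by 0.48, 0.32 and 0.33 log2 units (limma adjusted p = 0.00676, 0.00765 and 0.00952). Cox5b, a zinc-binding subunit, had control values of 5.52, 5.59, 5.68, 5.43 and 5.58 log2 CPM and mimic values from 4.52 through 4.77 to 5.76. Mimic replicate 1 held the highest value of all 11 libraries, and the other 5 were 5.00 or lower. The change was -0.64 ± 0.184 (limma adjusted p = 0.0237), and the call was lost without mimic replicate 4 (-0.56) or 6 (-0.60). Of the 50-base stretches of Cox5a, Cox5b and Cox4i1, 32.05%, 25.86% and 14.66% occur in other genes. Ndufa4, named after complex I but since assigned to complex IV, fell by 0.42 (limma adjusted p = 0.0184).

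Several complex IV subunits exist in pairs of isoforms, 1 widespread and 1 typical of heart and muscle, lung or testis. The widespread forms carried nearly all the reads. Cox4i1 averaged a log2 CPM of 8.22 in controls, whereas Cox4i2, the lung form, had 2 reads over all controls and 6 over all mimic libraries. Cox8a averaged 7.43, against 3 and 5 reads for the muscle form Cox8b. Cox6a1 averaged 7.16 and the muscle form Cox6a2 -0.84, just above the minimum level, and Cox7a2 averaged 5.87 against 0.45 for the muscle form Cox7a1. Of these pairs, Cox4i1, Cox7a2 (-0.57, limma adjusted p = 0.0157) and Cox8a fell. Cox6a1 was not called, at -0.19 (limma adjusted p = 0.0753), but passed without mimic replicate 1, at -0.25. Cox6a2 and Cox7a1 had changes of 0.10 and -0.26 (limma adjusted p = 0.808 and 0.272).

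The 8 genes below the minimum were Cox4i2, Cox6b2, Cox7b2, Cox8b, Cox8c, Ndufa4l2, mt-Co3 and mt-Nd3. Cox6b2, the nearest to it, had 32 reads in controls and 44 with the mimic, and the other 7 had 6 or fewer per group. Just inside the minimum were Cox6a2 and Atp5l, with control means of -0.84 and -0.21 log2 CPM.

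Complex V, the ATP synthase, had 5 of 15 subunits called lower and none higher, with a median of -0.19. In the catalytic F1 head, 2 of 5 fell: Atp5e, the epsilon subunit, and Atp5d, the delta subunit, both part of its central stalk. Atp5e had control values of 6.23, 6.29, 6.27, 6.18 and 6.28 log2 CPM and mimic values from 5.32 through 5.51 to 6.34. Mimic replicate 1, at 6.34, was above every control and the next mimic library was 5.66. The log2 fold changes were -0.64 ± 0.158 for Atp5e and -0.46 ± 0.11 for Atp5d (limma adjusted p = 0.0118 and 0.00784). The alpha and beta subunits of the same head, Atp5a1 and Atp5b, were not called, at -0.08 ± 0.0403 and 0.0031 ± 0.0366 (limma adjusted p = 0.164 and 0.958). The sign of the Atp5b estimate turned under several scalings, as given with the alternatives.

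The c-ring, the rotor in the membrane, is encoded by 3 genes for 1 mature protein. Atp5g3 carried most of its reads, with control values of 6.68, 6.69, 6.68, 6.61 and 6.63 log2 CPM and mimic values from 5.88 through 6.17 to 6.61. Mimic replicate 1 and control replicate 4 both read 6.61, with the mimic library the lower beyond 2 decimals. Atp5g3 fell by 0.44 ± 0.103 log2 units (limma adjusted p = 0.007). Atp5g1 and Atp5g2 averaged 1.45 and 0.71 in controls and had changes of -0.19 and 0.23 (limma adjusted p = 0.24 and 0.195). Atp5g2 is uncertain, since 87.39% of its 50-base stretches occur in other genes, and so is Atp5l (84.85%). Atp5o, a stalk subunit, fell by 0.48 (limma adjusted p = 0.0123), and 50.32% of its stretches occur in other genes.

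Of the genes of mitochondrial DNA, mt-Nd1, mt-Nd2, mt-Nd4, mt-Nd5 and mt-Nd6 of complex I, mt-Cytb of complex III and mt-Co1 of complex IV were tested. mt-Co2, mt-Atp6, mt-Atp8 and mt-Nd4l were not analysed here. mt-Co3 and mt-Nd3 had 0 reads in controls and 1 and 3 with the mimic, and 99.86% and 97.99% of their 50-base stretches also occur in other genes. That share was 62.23% for mt-Nd4 and 51.14% for mt-Co1, so their levels are uncertain. The counted genes with an mt- name together took 0.304 to 0.357% of the assigned reads in controls and 0.253 to 0.325% with the mimic. These shares cover the counted genes only and need not be those of all mitochondrial RNA.

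The catalytic subunit mt-Co1 had the highest level of all members, on both the CPM scale and the scale of CPM per kilobase of transcript. It had control values of 10.88, 11.00, 10.89, 10.68 and 10.71 log2 CPM and mimic values from 10.66 through 10.88 to 10.98. The groups overlapped throughout, with a log2 fold change of 0.04 ± 0.0652 (limma adjusted p = 0.683). mt-Nd1 had control values of 8.16, 8.34, 8.19, 7.97 and 8.07 and mimic values from 7.82 through 8.02 to 8.15, a change of -0.15 ± 0.067 (limma adjusted p = 0.0995). mt-Nd6, the gene on the opposite strand to the others, had control values of 4.37, 4.43, 4.50, 4.31 and 4.37 and mimic values from 4.26 through 4.67 to 4.89, a change of 0.21 ± 0.113 (limma adjusted p = 0.159). Mimic replicates 3, 4 and 6 were above every control for mt-Nd6, and without mimic replicate 1 it passed the threshold, at 0.28. The other 4 genes had changes of 0.03 (mt-Nd2), -0.08 (mt-Nd4), 0.13 (mt-Nd5) and -0.07 (mt-Cytb). Averaged over the 7 genes, mimic replicates 1 to 6 deviated from the control mean by -0.11, -0.27, 0.26, 0.07, 0.00 and 0.14 log2 units, and the 5 controls by 0.01, 0.12, 0.06, -0.14 and -0.06.

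Per kilobase of transcript, mt-Co1 stood at 10.21 (log2 CPM per kilobase, control mean), followed by Cox4i1 at 8.60, Atp5b at 8.35, Cox8a at 8.29, mt-Nd1 at 8.21 and Atp5a1 at 8.05. The class medians were 5.62 for complex I, 6.23 for complex II, 6.05 for complex III, 6.58 for complex IV, 6.30 for complex V and 2.50 for the assembly factors. Across the 77 subunits, the change with the mimic had a Spearman correlation of 0.066 with the control level in log2 CPM. Genes share the same libraries, so this correlation, and those below, are descriptions across genes.

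The subunits that fell were mostly short transcripts. With the length of the principal GENCODE transcript, 32 of 45 subunits shorter than 1000 nucleotides were called lower (71.1%), 10 of 24 from 1000 to 2000 (41.7%) and 0 of 8 from 2000 upwards, with median changes of -0.37, -0.16 and 0.01. Among other protein-coding genes the shares were 40.4% of 643, 21.0% of 2428 and 11.3% of 8580, with medians of -0.23, -0.07 and 0.03. Spearman's correlation of the change with transcript length was 0.50 over the 77 subunits and 0.27 over 11651 other protein-coding genes. The 8 long members were Ndufa10, Atp5a1, Ndufs1, Sdha, Sdhc, Ndufab1, Ndufb2 and Atp5g1. The length class of Atp5g1, Ndufb2 and Ndufab1 is uncertain, since their annotated transcripts of 4715, 4371 and 3479 nucleotides hold coding sequences of 408, 315 and 468.

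**Figure D4:**
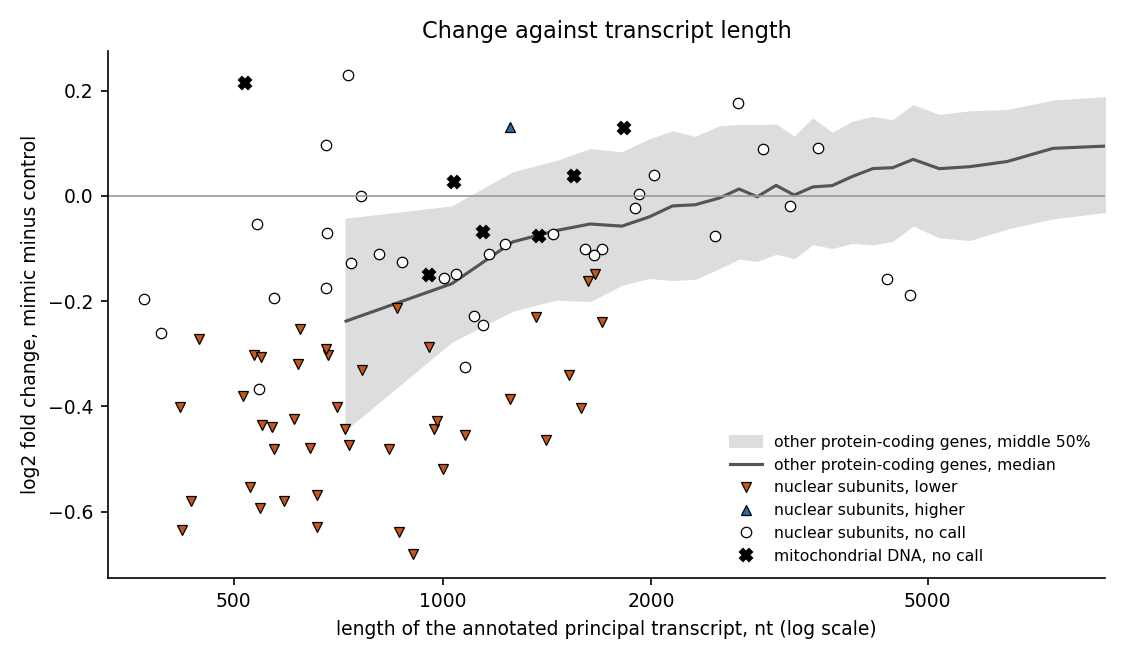
Log2 fold change (mimic minus control) against principal transcript length in nucleotides (log axis) for the 77 nuclear subunits and the mitochondrially encoded genes, over the median and quartiles of other protein-coding genes in bins of length. Both the subunits and the other genes lie lower at short lengths, the subunits with a median of -0.37 below 1000 nucleotides.

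Short genes of other kinds deviated in the same libraries. Over the 643 other protein-coding genes below 1000 nucleotides, mimic replicates 1 to 6 deviated from the control mean by 0.08, -0.21, -0.29, -0.37, -0.10 and -0.31 log2 units, and over the 45 short subunits by 0.03, -0.37, -0.44, -0.57, -0.23 and -0.47. The 43 histone genes deviated by 0.03, -0.70, -1.13, -1.40, -0.61 and -1.36. Protein-coding histone genes of that length were not left out of the 643, so the 2 sets may overlap. With a correction for transcript length made within each library, 27 subunits were called lower and 4 higher (Ndufa13, Ndufb3, Atp5g2 and Atp5h), with a median of -0.10, against 14.3% of all genes lower and 16.5% higher. The 27 were all among the 42, and they included Ndufb6, Ndufb11, Cox7a2l, Cox8a, Cox4i1, Atp5g3 and Atp5e. Ndufb7 (-0.01), Uqcrh (-0.04), Uqcr11 (0.02) and Ndufa1 (-0.10) were not called after it. Below 1000 nucleotides the corrected shares called lower were 42.2% of subunits and 20.7% of other genes. For complexes I to V in turn, the corrected medians were -0.10, -0.01, -0.05, -0.15 and -0.07. Called lower after the correction were 12, 0, 3, 8 and 4 subunits, and called higher 2, 0, 0, 0 and 2. The median transcript lengths were 939.5, 2065.5, 955, 652 and 838 nucleotides. For the genes of mitochondrial DNA and the assembly factors, the corrected medians were 0.105 and 0.095, with 0 and 1 called higher and 0 lower in both. Their median transcript lengths were 1144 and 1487 nucleotides. The part that transcript length or RNA quality has in the fall was not tested.

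**Figure D5:**
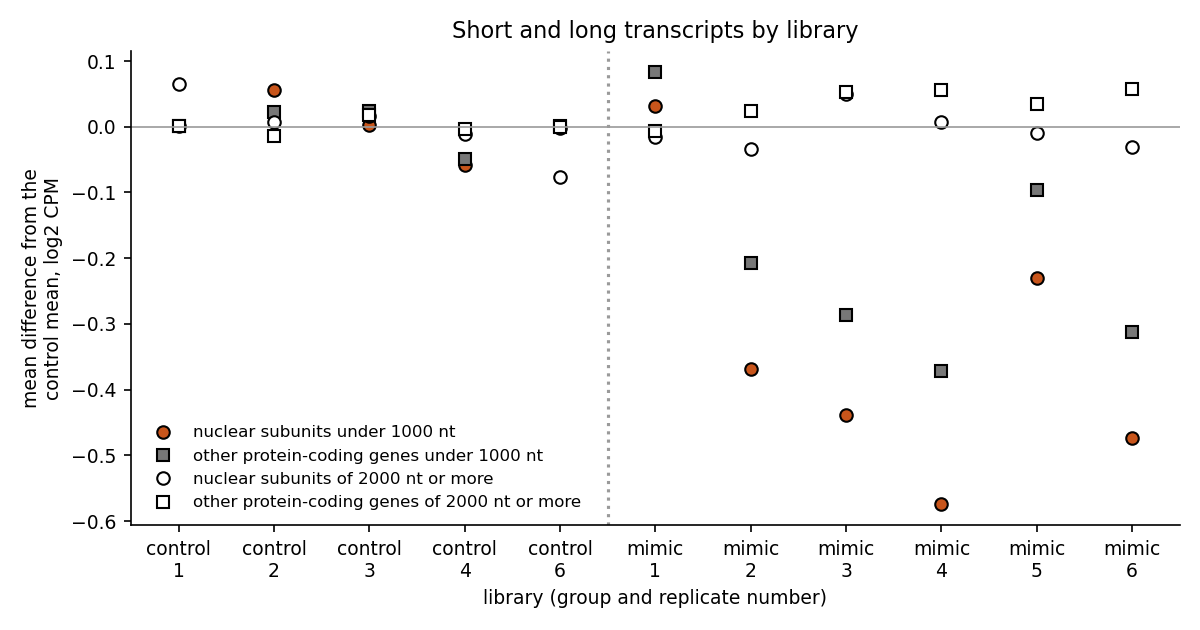
Mean deviation from the control mean (log2) in each of the 11 libraries for nuclear subunits and other protein-coding genes shorter than 1000 nucleotides or of 2000 nucleotides and more. The short subunits reach -0.57 and the other short genes -0.37 in mimic replicate 4, while in mimic replicate 1 both are above 0.

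Mimic replicates 3, 4 and 6 are the libraries with the lowest histone share. Without these 3, 7 of the 77 nuclear subunits (9.1%) were called lower and none higher, with a median of -0.14, against 6.83% of all genes lower and 9.36% higher. Below 1000 nucleotides, 11.1% of subunits and 9.2% of other protein-coding genes were then called lower. From 1000 to 2000 nucleotides these shares were 8.3% and 6.5%. The 7 were Ndufb4 (36.98% of its 50-base stretches shared with other genes), Ndufb6, Ndufb7, Cox7a2l, Cox8a, Atp5d and Atp5g3. In that set of libraries 1 mitochondrially encoded gene was called lower, mt-Nd2, at -0.21. Without mimic replicate 1, 54 were called lower, among them all 42, and 3 higher (Ndufa13, Ndufs1 and Sdha), with a median of -0.32, against 19.3% of all genes lower and 20.8% higher.

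Genes that build or serve the chain were described from fixed lists. Of all genes tested, 15.4% were called higher and 14.6% lower. These shares were 9.36% and 6.83% without mimic replicates 3, 4 and 6, and 16.5% and 14.3% after the length correction. Of the 9 assembly factors with an Nduf or Atp5 name, Ndufaf3, a complex I assembly factor, had the largest change, -0.24 (limma adjusted p = 0.0513), and it passed the threshold without mimic replicate 1 (-0.30), 2 (-0.26) or 5 (-0.26). Of 43 other assembly factors tested, 5 rose and 11 fell (25.6%), with a median of -0.08. These counts were 3 and 1 (median -0.04) without mimic replicates 3, 4 and 6. After the length correction they were 7 and 9 (median -0.02). Coa5 and Cox15, both needed for complex IV (Cox15 makes its heme A), rose by 0.31 and 0.22 log2 units, and Coa6, which serves the copper site of complex IV, fell by 0.41 (limma adjusted p = 4.22e-05, 0.00206 and 0.00116). Of 14 genes of coenzyme Q synthesis and cytochrome c, Cyc1 among them, 1 fell (7.1%) and none rose. After the length correction 1 fell and 4 rose. The gene that fell was Coq4, by 0.34 (limma adjusted p = 0.0233). Its call was lost without control replicate 2 (-0.31), 3 (-0.32) or 6 (-0.32) or without mimic replicates 3, 4 and 6 together (-0.24). Cycs, cytochrome c itself, was at 0.02 ± 0.101 (limma adjusted p = 0.879).

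Of 16 transcription factors and coactivators of respiratory genes, 2 rose and 4 fell, with a median of 0.04 (1, 3 and -0.04 without mimic replicates 3, 4 and 6). Tfeb, a regulator of lysosome and mitochondrial genes, fell by 0.43, Ppard by 0.31 and the coactivator Ppargc1b by 0.30, whereas Hif1a, the hypoxia-inducible factor, rose by 0.25 log2 units (limma adjusted p = 0.000195, 0.00147, 0.0221 and 0.00173). Ppargc1b missed the threshold without control replicate 4, at -0.29. Ppargc1a, Nrf1 and Gabpa were not called, at 0.17, -0.07 and 0.13 (limma adjusted p = 0.229, 0.339 and 0.127), and Gabpa passed without mimic replicate 1, at 0.16. Of 34 genes that maintain or express mitochondrial DNA, 8 rose and 3 fell (8.8%), with a median of 0.04 (2, 1 and 0.04 without mimic replicates 3, 4 and 6). After the length correction 7 rose and 3 fell (median 0.06). Pnpt1, a mitochondrial RNA exonuclease, rose by 0.63 ± 0.0568 log2 units with no overlap between the groups (limma adjusted p = 3.95e-07). Trmt10c and Hsd17b10, partners in the enzyme that trims the 5′ ends of mitochondrial tRNAs, moved apart, at 0.22 and -0.32 (limma adjusted p = 0.0091 and 0.00702).

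Tfam, which packages mitochondrial DNA and starts its transcription, rose by 0.14 (limma adjusted p = 0.0372), and the call was lost without control replicate 1 (0.11), 2 (0.13) or 6 (0.13) or mimic replicate 4 or 6 (0.13 each). Polrmt, the mitochondrial RNA polymerase, was at -0.19 (limma adjusted p = 0.0539) and passed without control replicate 2 (-0.24) or mimic replicate 1 (-0.22) or 2 (-0.21). Of 8 carriers and pores, 5 fell (62.5%) and none rose, with a median of -0.15. Called lower were 1 (median -0.06) without mimic replicates 3, 4 and 6 and 3 (median -0.02) after the length correction. The proton carrier Ucp2 fell by 0.23, the ADP/ATP carrier Slc25a4 by 0.18 and the ATP synthase inhibitor Atpif1 by 0.17 log2 units (limma adjusted p = 0.00488, 0.0149 and 0.0393). The Atpif1 call was lost without any 1 of control replicates 1 to 4 and mimic replicates 2, 3, 4 and 6 (-0.14 to -0.19). Of 38 genes of protein import and inner membrane proteolysis, 4 rose and 10 fell (26.3%), with a median of -0.09. These counts were 1 and 3 (median -0.02) without mimic replicates 3, 4 and 6, and after the length correction 4 and 6 (median -0.05). The import motor chaperone Hspa9 rose by 0.32, and the import complex genes Tomm7 and Timm17b fell by 0.69 and 0.33 (limma adjusted p = 0.00083, 0.00291 and 0.00446).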

How the data were processed

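The authors' deposited table holds log2 CPM per gene and library. The submitters' processing notes name STAR, Subread, featureCounts and edgeR; their versions, the build, the annotation and the strand setting are not given in the sources used here. From the values, each is the log2 of whole reads plus 0.5 over a scaled library total, and reads were recovered within 0.01 for 100% of values. The authors also deposited a log2 fold change, linear fold, moderated score, p-value and adjusted p-value; the test used for them is not given in the sources used here.

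Models with a group term were fitted to the deposited log2 CPM with trend and robust moderation in limma 3.58.1 (R 4.3.3, statmod 1.5.0) over the 12969 genes passing the minimum level, with Benjamini-Hochberg adjustment and a threshold of 0.05. The code was tested on simulated data. Members, gene lists and tests were chosen with earlier results of these data known. Named were all mitochondrially encoded genes, up to 4 called members per complex and direction by smallest p, and fixed isoforms and core subunits. Also named were up to 3 called members of each other list, and 7 fixed regulators and cytochrome c. Ndufs7, Ndufv2, Cox5b, Uqcrc2, Cyc1, Ndufb3, Ndufb4, Ndufaf3, Atp5h, Atp5l, the long members and the marker genes were named after their values were seen. The main fit did not pair libraries by replicate number, since the labels do not say whether same-numbered libraries belong together. Positions, transcript lengths and shared 50-base stretches are from GENCODE M21 (GRCm38) and promoters from RefSeq, neither of which need be the authors' annotation. Alternatives covered filter, scaling, pseudocount, sample weights, moderation, threshold, replicate block, length correction (lowess, span 0.3) and libraries left out. The sequence of miR-150-5p and its target sites were not analysed here. 1 member is not reported by name here.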

Additional observations from a re-analysis of the deposited data

Results flagged for a closer look

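In 158 groups of 4 to 10 libraries, 7 had 1 library far from the rest by Dixon's criterion; chance alone gives about 1 in 20. Mimic replicate 1 stood high among the mimic libraries for 3 genes: Ndufa1 at 5.70 log2 CPM (the others 5.12 to 5.33), Atp5e at 6.34 (5.32 to 5.66) and Tomm7 at 5.25 (4.31 to 4.61). Among controls, Ppargc1a was low in replicate 4, at 1.44 (1.60 to 1.64), and Polrmt in replicate 2, at 3.74 (3.95 to 4.04). The mean deviation of complex II was lowest in control replicate 6, at -0.0645. The share of reads in the counted genes with an mt- name was lowest in mimic replicate 2, at 0.253% (0.299 to 0.325%). The causes were not tested.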

How the results depend on the processing

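Of the 43 called genes named in the text, 41 kept their direction under each of the 22 alternatives in which they were tested; the exceptions are Uqcr11 (0.0205) and Atpif1 (0.0912) after the length correction. Depth limits the lowly expressed members Cox6a2, Cox7a1, Atp5g1, Atp5g2 and Atp5l, and the length correction rests on annotated transcripts that may not be those expressed here. Leaving out libraries lowers the number of samples as well as removing their values. Causes of the other differences were not tested.

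Nuclear subunits called lower numbered 42 as reported, 27 after the length correction, 19 with no filter on low values, 54 with voom sample weights (2660 of 12969 genes lower and 2961 higher), 17 at a threshold of 0.01, 7 without mimic replicates 3, 4 and 6 together, and 30 to 54 when single libraries were left out. Those called higher numbered 1 as reported, 4 after the length correction, 3 with voom sample weights, and 0 at a threshold of 0.01, with totals unscaled, with totals that leave out mitochondrial reads and without mimic replicates 3, 4 and 6 (0 to 3 with single libraries left out). Their median was -0.10 after the length correction and -0.32 to -0.21 with single libraries left out. Mitochondrially encoded genes called higher numbered 1 (mt-Nd6) with voom weights and 0 to 1 with single libraries left out. Without mimic replicates 3, 4 and 6 together 1 was called lower (mt-Nd2) and the median was -0.15; it was -0.0409 to 0.0807 with single libraries left out. Over all genes, 967 were higher and 792 lower at a threshold of 0.01, 1214 and 886 without mimic replicates 3, 4 and 6, and 1488 to 2693 and 1403 to 2506 with single libraries left out.

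With the replicate number as a block, 47 nuclear subunits were called lower and 0 higher (median -0.27; Ndufa13, at 0.14, missed the threshold), the mitochondrial median was 0.02, and 1775 genes were higher and 1793 lower. The deviations of same-numbered libraries correlated at 0.001, -0.043, -0.061, 0.062 and 0.031 for numbers 1, 2, 3, 4 and 6, and not every library correlated best with its own number. Under that replicate block Atp5b was at -0.009 and Cox6a2 at -0.0116.

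Other sign changes were in genes without a call as reported. Atp5b was at -0.0013 with median-of-ratios scaling, -0.0063 with totals unscaled, -0.0066 with totals that leave out mitochondrial reads and -0.0042 with voom weights. mt-Cytb was at 0.019 with voom weights. After the length correction Cox6a1 was at 0.0596, Cox7a1 at 0.0414, Sdhd at 0.0151, Uqcrc2 at 0.0169, mt-Cytb at 0.0495, mt-Nd1 at 0.0049 and mt-Nd4 at 0.0098. Without mimic replicates 3, 4 and 6 together Cycs was at -0.0355, Gabpa at -0.0075, Sdhc at 0.0684, Sdhd at 0.0213, Uqcrc2 at 0.0331, mt-Nd2 at -0.21, mt-Nd5 at -0.0893 and mt-Nd6 at -0.0421. With single libraries left out, Atp5b ranged from -0.0112 to 0.0165, Cox6a2 from -0.15 to 0.21, Cycs from -0.0175 to 0.0675, Sdhc from -0.0395 to 0.0125, mt-Co1 from -0.0001 to 0.0807 and mt-Nd2 from -0.0409 to 0.0958.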
